A study of Homo sapiens with 6 samples.

Results

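The 2q14.2 region is a stretch of human chromosome 2 known for long-range epigenetic silencing in colorectal cancer, in which neighbouring CpG islands become methylated together and genes along the band are repressed. It was taken here as positions 118.5 to 122.0 Mb of chromosome 2 in the human build hg19 (chr2:118500001-122000000). The region was set by position and by no cutoff on a measured value, but it was chosen with earlier results of these data known. It holds 175 of the 140474 bins of 20 kb that were measured in both lines, and 10 genes served as landmarks along it, each placed to the nearest 10 kb. Hi-C, which cross-links chromatin and sequences DNA ends that were ligated because they lay close together, had been carried out on 3 libraries of HCT116, an established colorectal cancer line without engineered changes here, and on 3 libraries of DKO1, the same line with DNMT1 and DNMT3B knocked out. Both lines were grown in the same serum-supplemented medium, and no treatment or time course was applied. DKO1 is a single derived line, so the knockouts and other properties of that line cannot be told apart. The 3 libraries of a line are represented by shared files and were treated as pooled. Each bin therefore has 1 value per line with no replicate error, and no test between the lines was possible. The files used here hold no methylation, expression or contact counts, and the depth of the maps is unknown.

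Hi-C divides chromosomes into compartment A, which is gene-rich, accessible and early replicating, and compartment B, which is compact and mostly inactive. DNMT1 copies methylation to new DNA strands and DNMT3B adds it at new sites, and DKO1 is known to have lost most DNA methylation. In colorectal tumours EN1, SCTR and INHBB are known for methylated promoter CpG islands, while several genes between them carry unmethylated islands. The deposited score, PC1, is the first principal component of the contact map. It was scaled to a mean of 0 and an SD of 1 within each chromosome, so its unit is SD. A positive value was read as compartment A and a negative one as compartment B. A topologically associating domain, here called a domain, is a stretch that contacts itself more than its surroundings.

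The promoters show what DNA methyltransferases could act on at these genes, since methylation falls on the base pair CG. RefSeq promoter sequences on GRCh38.p14 matched 8 of the 10 landmarks, and the entries for DDX18 and EN1 were missing. The 250 bases before the most upstream listed start are printed for 4 genes, chosen because INSIG2 is the landmark whose compartment differed between the lines, MARCO has the fewest CG pairs of the 8, and SCTR and INHBB are known methylation targets. Sequences run 5′ to 3′ on the gene's own strand, with every CG in capitals. These GRCh38 positions, chr2:118088221-118088470 (plus strand), chr2:118941944-118942193 (plus), chr2:119524484-119524733 (minus) and chr2:120345886-120346135 (plus), cannot be set against the hg19 positions used for everything else.
INSIG2: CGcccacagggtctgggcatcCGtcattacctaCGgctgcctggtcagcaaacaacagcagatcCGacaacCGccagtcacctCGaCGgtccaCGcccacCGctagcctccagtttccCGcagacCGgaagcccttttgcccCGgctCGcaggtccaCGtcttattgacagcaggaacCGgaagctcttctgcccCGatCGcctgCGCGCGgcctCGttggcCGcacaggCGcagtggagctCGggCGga
MARCO: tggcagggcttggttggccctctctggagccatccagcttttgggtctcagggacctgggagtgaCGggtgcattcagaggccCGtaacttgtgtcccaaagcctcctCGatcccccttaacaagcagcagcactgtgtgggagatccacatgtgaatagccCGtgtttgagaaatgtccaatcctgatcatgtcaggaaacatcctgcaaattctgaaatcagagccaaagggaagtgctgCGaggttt
SCTR: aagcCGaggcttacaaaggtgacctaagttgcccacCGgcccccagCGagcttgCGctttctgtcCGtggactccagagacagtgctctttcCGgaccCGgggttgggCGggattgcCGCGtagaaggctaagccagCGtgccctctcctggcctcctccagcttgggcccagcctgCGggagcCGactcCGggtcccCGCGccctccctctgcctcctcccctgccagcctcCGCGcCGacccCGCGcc
INHBB: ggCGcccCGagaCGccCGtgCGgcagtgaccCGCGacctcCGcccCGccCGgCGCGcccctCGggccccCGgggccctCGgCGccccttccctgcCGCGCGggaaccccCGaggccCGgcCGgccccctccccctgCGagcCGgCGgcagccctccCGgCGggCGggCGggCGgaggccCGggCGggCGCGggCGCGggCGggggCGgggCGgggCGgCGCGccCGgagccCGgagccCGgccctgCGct

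The INHBB window held 46 CG pairs and the MARCO window 5. INSIG2 and SCTR held 25 and 21, STEAP3 and RALB 25 each, and DBI and GLI2 26 each. The motif is the same on both strands. Among 27305 genes with a promoter of this length the median was 10 CG pairs, the quartiles were 3 and 23, and 93.6% held at least 1. Only 0.425% of them had as many as INHBB, against 65.0% with as many as MARCO. For genes with several listed starts the count depended on the start, from 15 to 27 at DBI and from 6 to 26 at GLI2. At the most upstream starts MARCO alone of the 8 was below the median of all genes, and at another listed start GLI2 was too. On the deposited scale the MARCO landmark was the lowest of the 10 in PC1 in both lines. With a 10 Mb running mean subtracted DDX18 was lower in DKO1, at -0.17 against -0.09. A relation of CG content to PC1 was not tested. CG content is a description of the reference sequence and says nothing about methylation in these cells.

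In both lines the region was mostly B on the left and mostly A on the right, with the border between these sides at the same place. PC1 crossed 0 at 119.92 Mb in HCT116 and in DKO1, between the MARCO and STEAP3 landmarks. Left of this border, over 71 bins, PC1 averaged -0.82 ± 0.60 in HCT116 (SD over bins, 1 pooled map) and -0.67 ± 0.60 in DKO1. Right of it, over 104 bins, the averages were 1.00 ± 0.28 and 1.03 ± 0.46. Compartment A held 6 of the 71 left bins in HCT116 and 10 in DKO1, near INSIG2. It held all 104 right bins in HCT116 and 103 in DKO1. DDX18, INSIG2, EN1 and MARCO lie on the left, and STEAP3, DBI, SCTR, RALB, INHBB and GLI2 on the right. The flanks continued the 2 sides, with means over the neighbouring 0.5 Mb of -1.56 in HCT116 and -1.59 in DKO1 before the region, and of 1.03 and 1.20 after it.

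**Figure D1:**
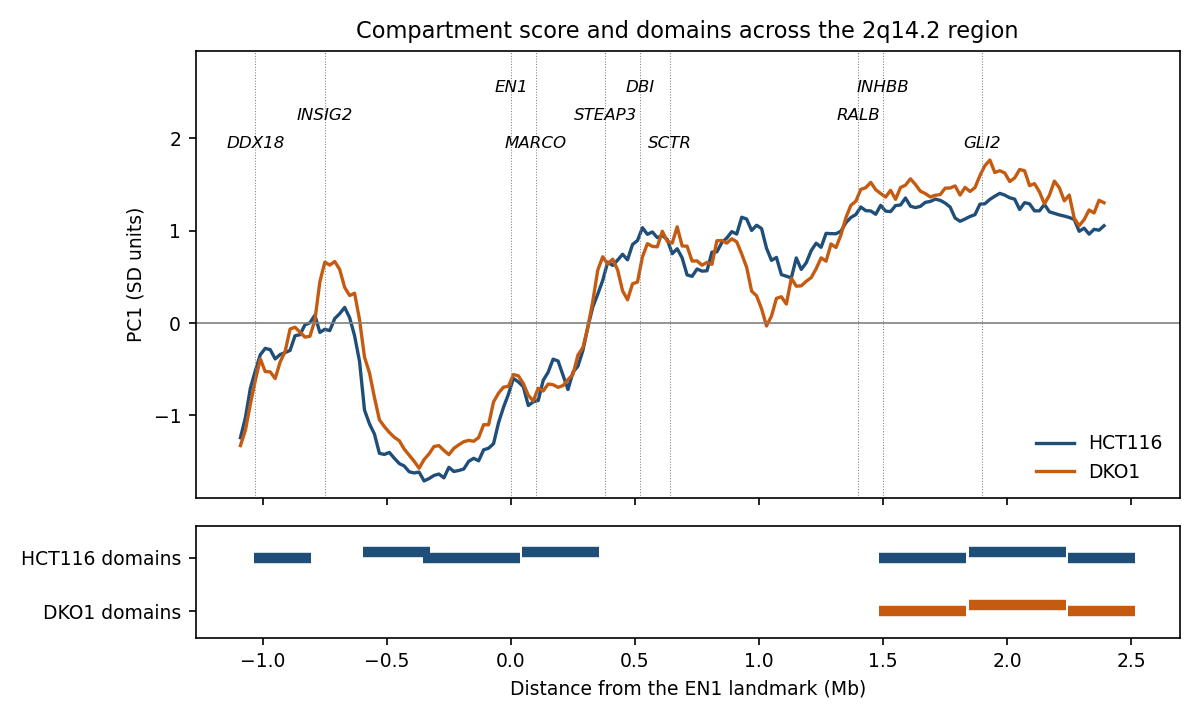
PC1 in SD units (upper panel) in 20 kb bins of HCT116 and DKO1, and the listed domains of each line as bars (lower panel), against the distance in Mb from the EN1 landmark; dotted lines mark the 10 landmarks, and bars of neighbouring domains are offset only to keep them apart. Both tracks cross 0 at the same place between MARCO and STEAP3, they separate most at INSIG2 and in a dip between SCTR and RALB, and the 3 DKO1 domains lie under 3 of the 7 HCT116 domains.

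Compartment A made up 62.9% of the region's bins in HCT116 and 64.6% in DKO1, against 54.7% and 49.4% of the bins of chromosome 2. Of the region's 175 bins, 168 kept their compartment, and over chromosome 2 11.4% of the bins switched. A change from B in HCT116 to A in DKO1 was seen in 5 bins, or 2.86% of the region, against 4.40% of the autosomal bins. The opposite change, from A to B, was seen in 2 bins, or 1.14%, against 8.92%. At least 0.5 higher in DKO1 were 6 bins (3.43%, against 13.6% of the autosomal bins), and at least 0.5 lower were another 6 (3.43%, against 14.9%). On the deposited scale the region's shares lay below the autosomal shares in all 4 classes. Among windows of the same length, described below, its B-to-A share was above the median. With chromosome medians subtracted the B-to-A share was 5.14% and the A-to-B share 0.57%, and with a 10 Mb running mean subtracted they were 1.14% and 2.86%. Neighbouring bins are not independent.

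INSIG2 was the 1 landmark of 10 with a different compartment in the lines. INSIG2 encodes a protein of the endoplasmic reticulum that holds back the activation of the sterol-sensing SREBP factors. PC1 over the bin that holds the landmark and 1 bin on each side was -0.08 in HCT116 (range -0.10 to -0.07) and 0.58 in DKO1 (range 0.45 to 0.66), a difference of 0.66. The HCT116 value was close to 0, so a small negative score became a moderate positive one. Among 132644 autosomal windows of 3 bins, 4.23% switched from B to A, and 17.1% had a larger absolute difference than INSIG2. In HCT116 the surroundings of INSIG2 alternated between the compartments, with short A intervals at 118.78 to 118.82 Mb (mean 0.04) and 118.88 to 118.96 Mb (mean 0.09). In DKO1 they formed 1 A island of 200 kb, at 118.80 to 119.00 Mb, with PC1 from 0.03 to 0.67 and a mean of 0.41. The same 10 bins ran from -0.42 to 0.17 in HCT116, with a mean of -0.03. All 5 B-to-A bins of the region lay in this island, and 4 of the 6 bins raised by at least 0.5 did too. The other 2 raised bins adjoined it, at 119.00 to 119.04 Mb, and stayed in B with means of -1.02 and -0.45. After a 10 Mb running mean was subtracted from each track, INSIG2 was positive in both lines, at 0.50 and 1.10, with nearly the same difference of 0.61.

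DDX18, which encodes a DEAD-box RNA helicase of ribosome biogenesis, lies left of INSIG2. Its PC1 was -0.52 in HCT116 and -0.63 in DKO1. With the chromosome median subtracted, its difference of -0.11 became 0.02. Between DDX18 and INSIG2 the RefSeq table for GRCh38.p14, used for names and order only, lists 1 protein-coding gene, CCDC93. A single bin there, at 118.78 to 118.80 Mb, went from A to B with values of 0.0024 and -0.14.

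EN1 and MARCO lay in compartment B in both lines. EN1 encodes a homeobox transcription factor of brain and limb patterning and is a classic methylation target of this band, and MARCO encodes a scavenger receptor of macrophages. EN1 had a PC1 of -0.67 in HCT116 (range over its 3 bins -0.77 to -0.60) and -0.60 in DKO1 (-0.68 to -0.56). MARCO had -0.77 and -0.76. The differences, 0.06 at EN1 and 0.01 at MARCO, were smaller than the range over each gene's own 3 bins, and 87.4% and 98.2% of the autosomal windows differed by more. The sign at MARCO changed with smoothing over 5 bins (-0.01) and with the 10 Mb running mean (-0.06). With the running mean EN1 was slightly positive in both lines (0.0516 and 0.0517), so its compartment depended on the centring. Along the track EN1 sat at a local peak, with -0.60 in HCT116 at 119.60 Mb, and MARCO in a second trough nearer the border.

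That lowest part lay between INSIG2 and EN1, where 750 kb hold 0 protein-coding genes in the RefSeq table. From the end of the DKO1 island at 119.00 Mb to the border at 119.92 Mb, all 46 bins were B in both lines, with means of -1.13 in HCT116 and -0.96 in DKO1, and 39 of the 46 neighbouring bins were higher in DKO1, as were 50.6% of the autosomal bins. The lowest HCT116 bin, at 119.24 Mb, had a PC1 of -1.71, and the lowest DKO1 bin of this stretch had -1.57.

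STEAP3, DBI and SCTR, the first landmarks right of the border, were A in both lines. STEAP3 encodes an endosomal reductase that prepares iron for uptake, DBI the acyl-CoA-binding protein, also known as the diazepam-binding inhibitor, and SCTR the receptor for secretin. STEAP3 had a PC1 of 0.58 in HCT116 and 0.68 in DKO1. SCTR, the second known methylation target, had 0.82 and 0.93. DBI was lower in DKO1, with 0.96 in HCT116 and 0.67 in DKO1, and its difference of -0.29 was the largest fall among the landmarks. It was near the middle of the genome's values, since 50.2% of the autosomal windows had a larger absolute difference. For STEAP3 the sign turned when only the bin that holds the landmark was used (-0.02).

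The largest fall of the region touched no landmark. It lay between SCTR and RALB, at 120.54 to 120.66 Mb, where PC1 averaged 0.95 in HCT116 and 0.24 in DKO1 over 6 bins. One of them, at 120.62 to 120.64 Mb, went from 0.81 to -0.03 and is the second A-to-B bin of the region. This is a dip inside compartment A and not a new B domain of any length. The RefSeq table lists 5 protein-coding genes between SCTR and RALB, in the order CFAP221, TMEM177, PTPN4, EPB41L5 and TMEM185B. Which of them lies under the dip was not analysed here, because the table is on another build.

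RALB, INHBB and GLI2 had the highest PC1 of the landmarks in both lines. RALB encodes a small GTPase of the Ras family, INHBB the beta B subunit of activin and inhibin, and GLI2 a transcription factor that carries out Hedgehog signalling. RALB had a PC1 of 1.22 in HCT116 and 1.41 in DKO1. INHBB, the third known methylation target and the gene with the most CG-rich promoter above, had 1.23 and 1.40. GLI2 had 1.31 and 1.69, the second largest difference among the landmarks at 0.38, with 38.7% of the autosomal windows differing by more. At RALB and INHBB the differences were 0.19 and 0.17, and 64.3% and 68.4% of the autosomal windows differed by more. The size of these differences depended on the scale of the tracks. When each chromosome's DKO1 values were replaced by the HCT116 values of the same rank, an alternative added after seeing the data, they fell to 0.05 at RALB, 0.03 at INHBB and 0.12 at GLI2.

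**Figure D2:**
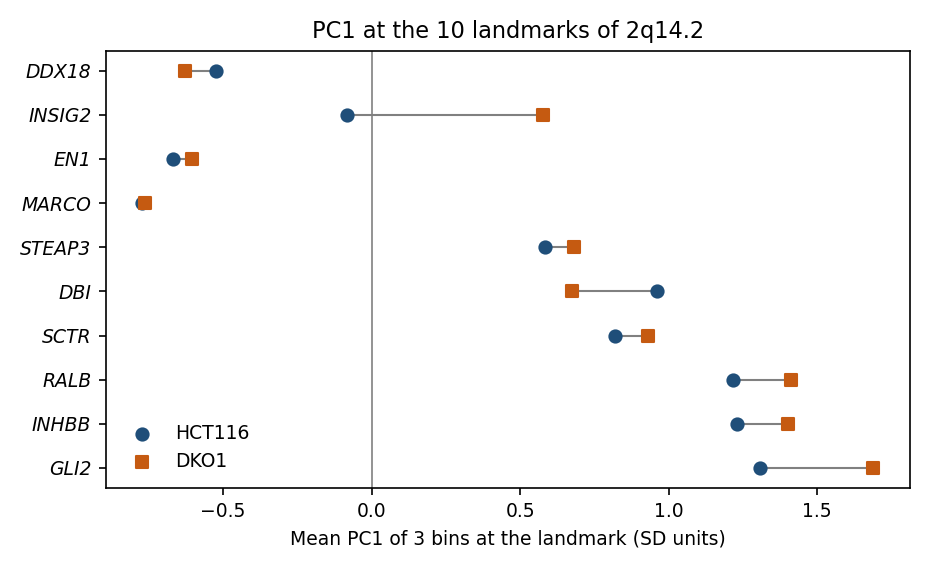
Mean PC1 in SD units over 3 bins at each of the 10 landmarks, listed from left to right along the chromosome, with HCT116 as circles, DKO1 as squares and a line joining them. INSIG2 is the only landmark whose symbols lie on different sides of 0, and 7 of the 10 differ by less than 0.25, as do 44.3% of the autosomal windows of 3 bins.

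Across the 10 landmarks, 6 were A in HCT116 and 7 in DKO1, where 54.7% and 49.4% of all chromosome 2 bins were A. PC1 was higher in DKO1 at 8 landmarks and lower at DDX18 and DBI. Among single bins, it was higher in DKO1 in 120 of the region's 175 and in 50.6% of the autosomal ones. The landmarks are thus not set apart from the rest of the region by this count. The median difference was 0.11 against 0.01 over all autosomal windows of 3 bins, whose quartiles were -0.30 and 0.28. Chromosome 2 medians of 0.11 in HCT116 and -0.02 in DKO1 mean that subtracting them adds 0.13 to every difference on the chromosome. After this, 9 of 10 landmarks were higher in DKO1. With the running mean, with smoothing and with 1 bin per landmark, 7 of 10 were. The autosomal shares under these alternative settings are not given here. From lowest to highest the order in HCT116 on the deposited scale was MARCO, EN1, DDX18, INSIG2, STEAP3, SCTR, DBI, RALB, INHBB and GLI2. In DKO1 it was MARCO, DDX18, EN1, INSIG2, DBI, STEAP3, SCTR, INHBB, RALB and GLI2. Every pair that changed places had overlapping 3-bin ranges in at least 1 line. In HCT116 this held for EN1 and DDX18, whose range was -0.71 to -0.34, for DBI and SCTR, and for RALB and INHBB, and in DKO1 it held for DBI and STEAP3. The 3 known methylation targets were found on both sides of 0 on the deposited scale, with EN1 in B and SCTR and INHBB in A in each line.

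Against windows of the same length the region had a high correlation and few switched bins in total, though not few from B to A. The autosomes were divided into 706 windows of 3.5 Mb that do not overlap, 2q14.2 being 1 of them. The correlation of the tracks within the region was r = 0.96 over its 175 bins, higher than in 607 of the other windows and lower than in 98. Within the sides r was 0.92 left of the border and 0.82 right of it. The median of 0.88 is over whole windows, which are longer than the sides, so it is not a like comparison. The bins are neighbours in the same 2 maps and this is a description. The mean absolute difference was 0.23, lower than in 574 windows, and the median over all 706 windows was 0.33. Switched bins made up 4.00%, less than in 493 windows and more than in 199, with a median of 9.04%. By direction, the B-to-A share of 2.86% was higher than in 458 windows and lower than in 224, with a median of 0.58%. The A-to-B share of 1.14% was lower than in 453 and higher than in 215, with a median of 3.43%. With chromosome medians subtracted the B-to-A share was 5.14% and the window median 2.29%. With the running mean they were 1.14% and 2.29%. The mean difference of 0.08 was near the middle, with 437 windows below it and 268 above. The region was more varied along its length than most, since the SD of PC1 in HCT116 was 1.00 and higher in only 133 windows. The value of r depends on this spread, and the rank in r was not adjusted for it. Among the 64 windows of chromosome 2 alone, 48 lay below the region in r, 21 in absolute difference, 16 in switched bins and 42 in mean difference.

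**Figure D3:**
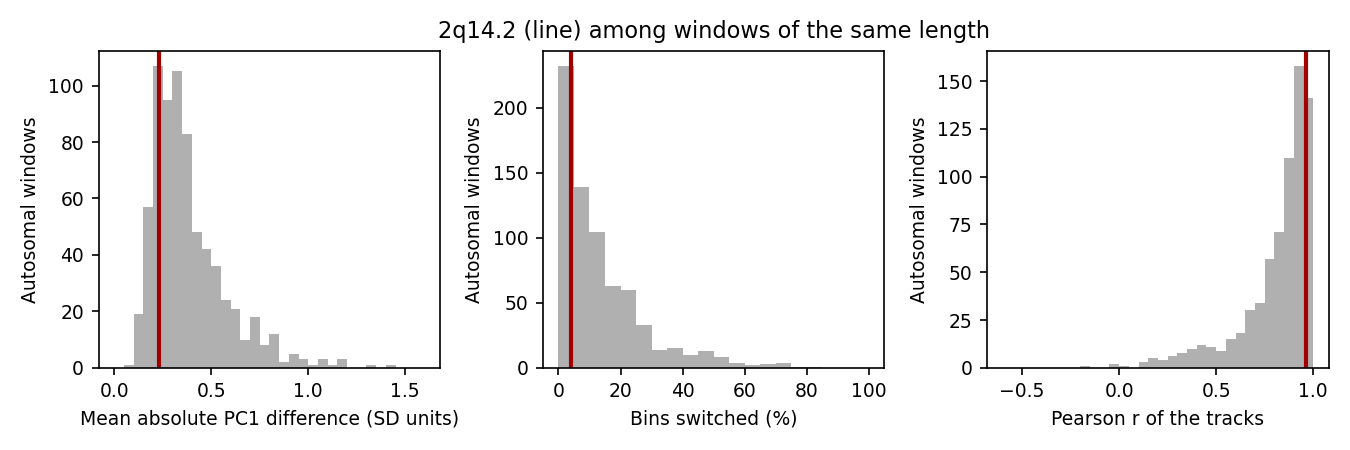
Histograms of 706 autosomal windows of 3.5 Mb by the mean absolute PC1 difference in SD units, the percentage of bins that switched compartment and the Pearson r between the lines, with the 2q14.2 region as a vertical line. The region lies in the lower part of the first 2 distributions (0.23 and 4.00%) and in the upper part of the third (0.96).

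The domain lists of the lines were of unequal length here, as they were in full, with 4289 domains in HCT116 and 1823 in DKO1. Domains with their midpoint in the region numbered 7 in HCT116 and 3 in DKO1. All 3 DKO1 domains had exactly the limits of an HCT116 domain, namely 121.08 to 121.44 Mb, which holds INHBB, 121.44 to 121.84 Mb, which holds GLI2, and 121.84 to 122.12 Mb. The 4 HCT116 domains without a counterpart all lay left of 119.96 Mb, and no DKO1 domain covered any part of them. They were 118.56 to 118.80 Mb with DDX18, 119.00 to 119.28 Mb, 119.24 to 119.64 Mb with EN1, and 119.64 to 119.96 Mb with MARCO. The EN1 domain and the one before it overlap from 119.24 to 119.28 Mb, and both positions were counted as boundaries. The 3 shared domains had HCT116 means of PC1 between 1.06 and 1.27, and the 4 others had means of -0.25, -1.45, -1.36 and -0.46. Domains thus covered 60.6% of the region in HCT116 and 26.3% in DKO1. The covered share of the autosomes is not given here, so the lower coverage in DKO1 cannot be called particular to the region.

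Over the autosomes 35.9% of HCT116 domains were matched in DKO1 at a reciprocal overlap of at least 80%, and 84.0% of DKO1 domains in HCT116, against 3 of 7 and 3 of 3 here. Among autosomal HCT116 domains with a mean PC1 of at least 1, 51.0% were matched, and among those with a negative mean 17.0%, against 3 of 3 and 0 of 4 in the region. With 7 domains these shares are not precise. The cutoffs also part the region's own matched domains from its unmatched ones, so 3 of 3 and 0 of 4 are no separate result. In HCT116 the region held 10 boundaries, 3 of which were listed in DKO1 at the same position (121.08, 121.44 and 121.84 Mb), where 45.2% of autosomal HCT116 boundaries were found within 40 kb. All 3 DKO1 boundaries inside the region were found in HCT116, where the autosomal share was 92.5%. The boundary at 119.64 Mb, between EN1 and MARCO, and that at 119.96 Mb, next to the compartment border, were listed in HCT116 but not in DKO1. PC1 at them changed from -0.66 to -0.61 and from 0.39 to 0.65.

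INSIG2, STEAP3, DBI, SCTR and RALB lay in no listed domain in either line. How common such a position is over the autosomes is not given here, so it cannot be called particular to these genes. In HCT116 a gap of 1120 kb without domains ran from 119.96 to 121.08 Mb through compartment A. In DKO1 the gap took up the region from its start to 121.08 Mb, and 2580 kb is only the part inside the region. The DKO1 boundary nearest to DDX18 was the same 121.08 Mb, 2510 kb away, so this gap began before the region. RALB was 80 kb from the boundary at 121.08 Mb and INHBB 20 kb inside it, in both lines. The EN1 landmark was 40 kb from the end of its HCT116 domain and 1480 kb from the nearest DKO1 boundary.

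Of the 706 windows, 59 had 7 HCT116 domains, as this region did. Their DKO1 counts ran from 0 to 6 with a median of 3, which is the count of the region. Of the other windows, 28 had fewer DKO1 domains, 16 the same number and 14 more. The number of domains listed in DKO1 was therefore the middle value for windows with this number in HCT116.

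**Figure D4:**
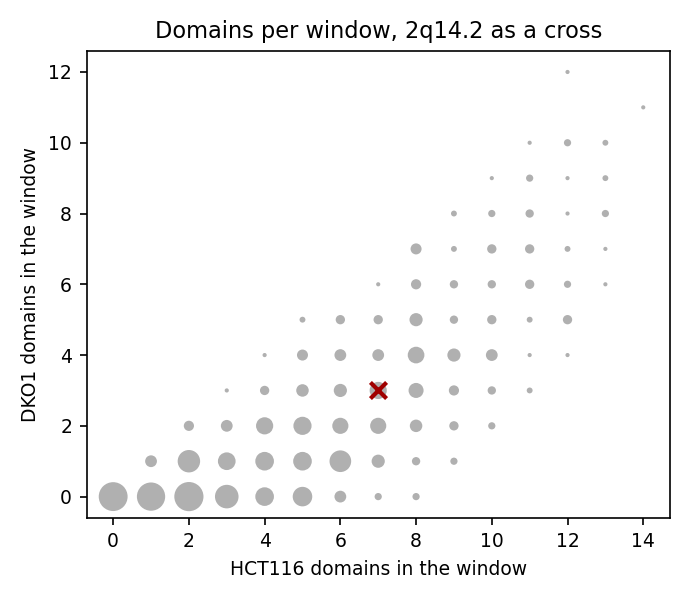
DKO1 domains against HCT116 domains per autosomal window of 3.5 Mb, with the area of each dot proportional to the number of windows and the 2q14.2 region as a cross at 7 and 3. The cross lies at the median of the windows with 7 HCT116 domains.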

How the data were processed

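The authors deposited 1 PC1 track and 1 domain list per cell line, and the labels of all 3 libraries of a line name the same files. PC1 is a score per 20 kb bin, and its deposited values were centred at 0 with an SD of 1 on every chromosome. The deposited lists give domain starts and ends on a 40 kb grid and no score. Per the submitters' processing notes HiC-Pro, HOMER 4.6 and hg19 (GRCh37) were used; which program called the domains is not given in the sources used.

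Bins in both tracks (HCT116 140527 bins, DKO1 140580) were joined by position. Landmark values are means of 3 bins. Windows needed 90% of their bins in both tracks. Boundaries were distinct starts or ends, found within 40 kb. The code that joins runs and matches domains was tested on altered copies of the HCT116 data, with planted sign changes and domains shifted by 40 kb. Domains that should fail to match were not tested. The region, its landmarks and the comparisons were chosen with earlier results of these data known; all 10 landmarks and all switched runs of the region are named. The printed promoters and the stretches between borders were chosen after the values were seen. The matching of tracks by rank was added after seeing the data. Alternatives covered centring, smoothing, limits, windows, overlap and tolerance. Python 3.11.15, numpy 2.4.6 and pandas 2.3.3 were used.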

Additional observations from a re-analysis of the deposited data

How the results depend on the processing

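No paired analysis was possible because the replicates of a line name the same pooled files, and for the same reason no replicate could be left out. No alternative for counting, overlap or tolerance changed the number or matching of the region's domains or the boundaries found. The region's mean difference of 0.08 was 0.21 with the median subtracted, 0.0076 with a 10 Mb running mean subtracted and 0.046 with DKO1 matched to HCT116 by rank. B-to-A bins (2.86%) made up 5.14% with the median subtracted, 5.14% after matching by rank, 4.57% after smoothing over 5 bins and 1.14% with the running mean. A-to-B bins (1.14%) made up 2.86% with the running mean, 0.57% with the median subtracted, 0.57% after matching and 0% after smoothing. A PC1 minimum of 0.5 in both lines gave 0% for each, but leaves out by construction every bin that is near 0 in either line. The running mean also moved the A shares to 78.9% in HCT116 and 77.1% in DKO1, since it shifts where 0 lies. The percentage of windows below the region in mean difference was 62.0%, and 55.7% with the running mean and 66.7% on chromosome 2 alone. In absolute difference it was 18.6%, and 33.0% with the median subtracted, 11.8% after matching by rank and 33.3% on chromosome 2. In switched bins it was 28.2%, and 35.9%, 19.7%, 34.6% and 35.7% with the median, running mean, smoothing and matching by rank. In r it was 86.1%, and 76.2% on chromosome 2. Among landmarks the difference changed sign at DDX18 with the median subtracted (0.023), at MARCO with the running mean (-0.057) and smoothing (-0.013), and at STEAP3 with 1 bin (-0.024). INSIG2 stayed between 0.49 and 0.79 in all settings. With the running mean INSIG2 and EN1 were A in both lines, the difference at EN1 fell from 0.065 to 0.0001 and no landmark switched; under the other settings 1 of 10 did. The depth of the maps is unknown, so no value has a counting error.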
